A study of Mus musculus with 30 samples.

Results

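Neurons release transmitter when calcium enters a terminal and vesicles already docked at the active zone fuse with the plasma membrane. Fusion is driven by SNARE proteins, which pair the vesicle with the plasma membrane, while complexins and Munc18-type and tomosyn-type regulators hold or release the complex. Munc13 and RIM proteins prime vesicles at the active zone, and C2-domain proteins such as the synaptotagmins sense the calcium. In the hippocampus these proteins set the strength and short-term plasticity of the connections that are modified during spatial learning.

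Levels of 38 genes of this machinery were taken from the FPKM table of the dorsal hippocampus by gene symbol, out of 24346 symbols on 24883 rows. All 38 were present and occupied 39 rows, because Rims1, which encodes the active zone scaffold RIM1, had 2. FPKM is the number of fragments per transcript length and sequencing depth, so levels can be set side by side between genes. All 39 rows averaged at least 1 FPKM and were above 0 in every library, so none was lost to the filter on low values.

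The study asked how point mutants of CREST, the neuronal BAF subunit encoded by Ss18l1, alter gene expression during memory consolidation. Each of the 5 conditions held 6 male C57BL/6J mice of wild-type genotype, between 2 and 4 months old, with 1 library per mouse. VEH-HC mice were handled only and stayed in the home cage, and VEH-T10 and VEH-T3 mice were trained in object location memory for 10 min (threshold) or 3 min (subthreshold), all 3 with the transfection reagent without DNA. Y397F-T10 mice were trained for 10 min and Y397D-T3 mice for 3 min. Both were first infused with plasmid DNA for a HA-tagged CREST mutant, Y397F or Y397D, under a minimal CaMK2 promoter. The labels call these phospho-null and phospho-mimetic, but the study could not detect phosphorylation of Y397 and treats them only as point mutants. Wild-type CREST was not overexpressed, so the mutation and the added expression cannot be told apart. Trained mice were collected 1 h after training. By the study's methods the task also includes days of habituation to the chamber before training, which home cage mice did not have. Training and habituation cannot be told apart in differences from VEH-HC. Ss18l1 was transcribed in all 5 conditions, at 11.4 to 13.3 FPKM in VEH-HC, with medians of 12.5 there and in Y397F-T10 and 13.7 in Y397D-T3, so its level does not tell the plasmid mice apart. Each plasmid was used with 1 training length only, so the mutant and the training length cannot be told apart between the plasmid conditions.

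The labels name a hemisphere of dorsal hippocampus and the study's methods name dCA1. Summed markers of CA1 pyramidal neurons lay between 171 and 269 FPKM over the 30 libraries, those of CA2 and CA3 pyramidal neurons between 312 and 537, and those of dentate gyrus granule cells between 49.97 and 160, so the tissue was not CA1 alone. Replicate 1 of VEH-T10, of Y397F-T10 and of VEH-T3 stood apart from the rest. Their summed astrocyte markers were 391 to 419 FPKM against 506 to 1623 in the other 27 libraries, their microglia markers 96.2 to 116 against 141 to 436, and their oligodendrocyte markers 1220 to 1361 against 1540 to 3999. Choroid plexus markers varied most, from 11.2 to 12858 FPKM over the libraries, with medians of 3171 in VEH-HC, 1970 in VEH-T3, 127 in Y397D-T3, 103 in VEH-T10 and 57.7 in Y397F-T10. Deep cortical layer markers also differed with the home cage: their sum was 20.6 to 25.1 FPKM in VEH-HC, against 14.9 to 19.5 in Y397F-T10 and 12.9 to 18.1 in VEH-T10. Its range was 15.1 to 32.4 in VEH-T3 and 14.7 to 26.4 in Y397D-T3. The release genes moved with many of these sums. Libraries were permuted without regard to condition, so a relation can also hold differences between conditions. Of 39 rows, the permutation test of Pearson's r over the 30 libraries, adjusted over 429 relations, passed for 28 with dentate markers, 27 with astrocytes, 26 with microglia, 23 with oligodendrocytes, 20 with CA1, 19 with interneurons, 17 each with deep cortical layers and endothelial cells, 15 with thalamus, 14 with CA2 and CA3, and 5 with choroid plexus. With the condition means removed, r was under -0.5 for 27 rows with astrocytes and for 28 with microglia. With deep cortical layers it was then over 0.5 for 14 rows and under -0.5 for 1. In bulk tissue, fewer cells of a type and less RNA per cell cannot be told apart.

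The release genes spanned a wide range of levels. Snap25, the plasma membrane SNARE, was the most abundant, with 878 ± 72.1 FPKM (SD, n = 6) in VEH-HC. Slc17a7, which loads glutamate into vesicles, followed with 583 ± 40.1, and Syp, the vesicle protein synaptophysin, with 590 ± 30.5. These 2 neighbours did not differ beyond their spread.

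At the other end, Unc13c, a Munc13 isoform best known from the cerebellum, had 2.43 ± 0.325 FPKM in VEH-HC. Sv2c, the least abundant of the SV2 vesicle glycoproteins, ranged from 1.41 to 3.00, so its order against Unc13c is not settled by these mice. Among calcium sensors, Syt1, the sensor of fast release, had 280 ± 14.5 FPKM and Syt2, which serves the same role in other circuits, 3.74 ± 0.730. Among vesicle proteins that bind actin, Syn2 had 206 ± 11.9 FPKM and Syn3 3.84 ± 0.259. The highest and lowest of the SNARE group were Snap25 and the tomosyn gene Stxbp5 (12.5 ± 0.861), those of the active zone group Unc13a (46.3 ± 4.48) and Unc13c, and those of the Rab3 group Rab3a (402 ± 34.1) and Rab3b (median 12.4).

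**Figure D1:**
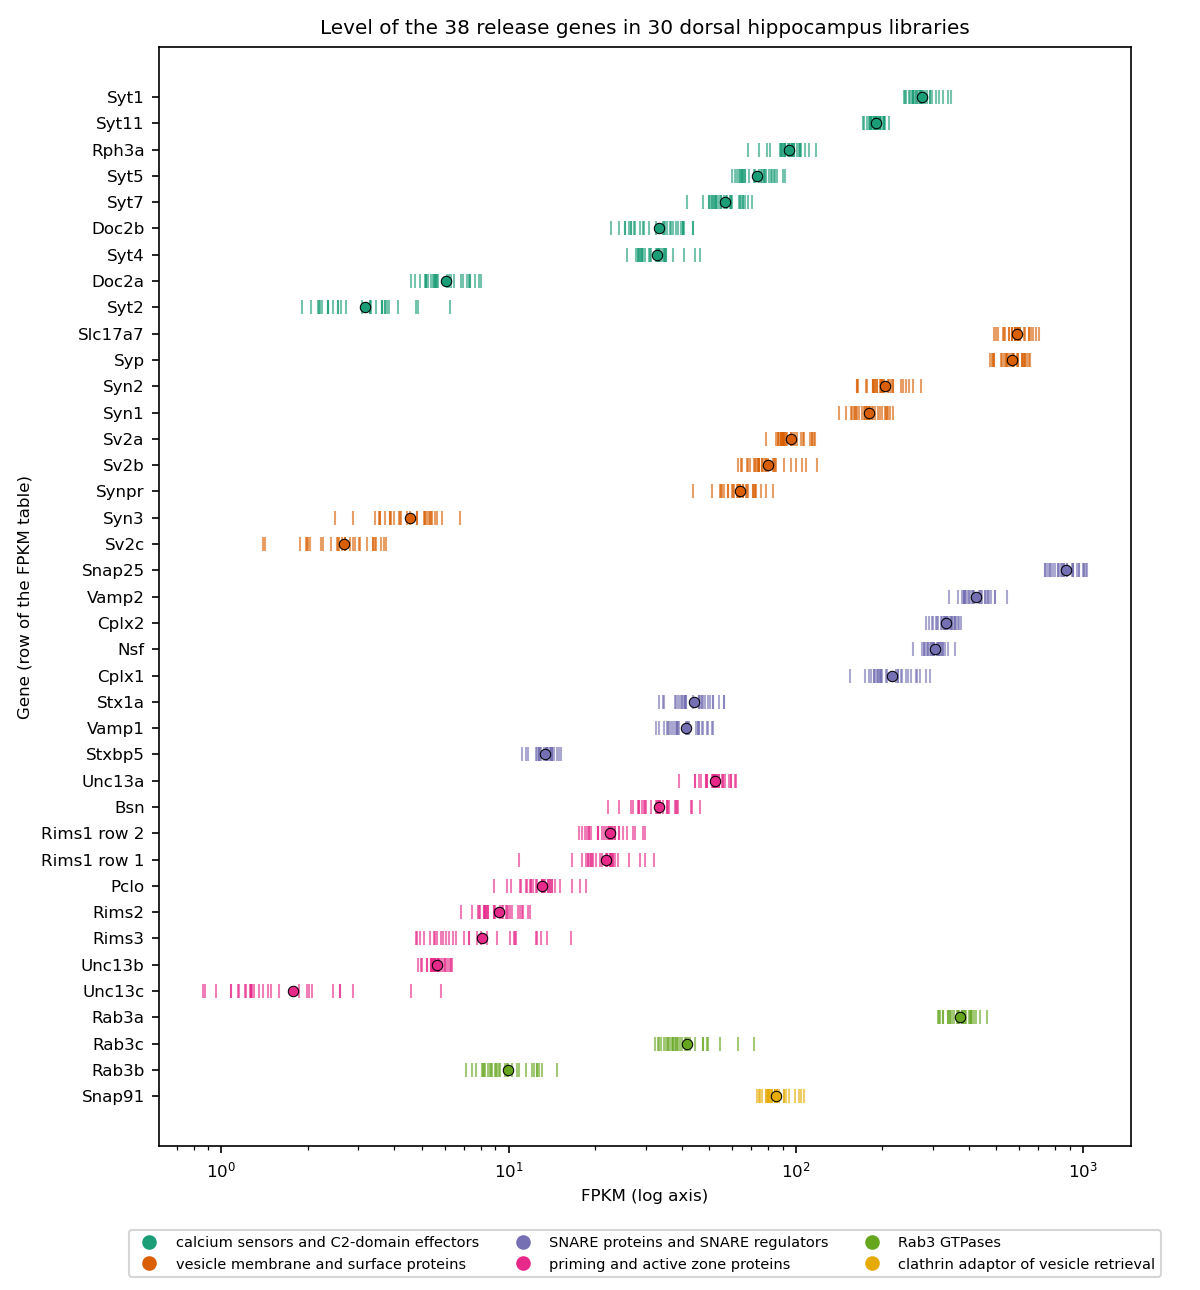
FPKM of each release gene (log axis), 1 tick per library for 30 libraries and a filled circle at their mean, with genes grouped by role. Snap25 lies at the top of the range and Unc13c at the bottom.

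Against the home cage, 5 of 39 release gene rows passed the test in Y397D-T3, 3 in VEH-T3, 1 in Y397F-T10 and 0 in VEH-T10. These counts were read against all 13184 rows tested with limma and Benjamini-Hochberg adjustment. In VEH-T10, 0.819% of all rows passed, 0.319% higher and 0.501% lower. In Y397F-T10, 1.13% passed, 0.47% higher and 0.66% lower, against 2.56% of the release gene rows.

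For the subthreshold training, 5.17% of all rows passed in VEH-T3, 2.23% higher and 2.94% lower, against 7.69% of the release gene rows. In Y397D-T3, 7.07% passed, 3.91% higher and 3.16% lower, against 12.8% of the release gene rows. Before adjustment, 17 of the 39 rows had p under 0.05 in Y397D-T3 and in VEH-T3, 16 in Y397F-T10 and 12 in VEH-T10, or 30.8% to 43.6% of them, where all rows gave 24.9%, 21.6%, 16.9% and 14.9%. All 4 comparisons share the VEH-HC mice, so a chance deviation of those mice would enter all of them.

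Of the calcium sensors, the genes of the Doc2 family differed from the home cage in opposite directions. Doc2a and Doc2b encode C2-domain proteins that respond to low calcium and act in spontaneous and asynchronous release. Doc2a ranged from 6.92 to 8.03 FPKM in VEH-HC, with a median of 7.48. Its lowest, median and highest values were 4.58, 5.56 and 6.48 in Y397F-T10 and 4.92, 5.64 and 7.15 in VEH-T10.

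They were 4.71, 5.50 and 6.85 FPKM in Y397D-T3 and 5.10, 5.30 and 7.32 in VEH-T3. All 6 Y397F-T10 and all 6 Y397D-T3 mice lay below every VEH-HC mouse, as did 5 of 6 mice of each vehicle group that was trained. Rows without overlap were not counted over all rows, so here and below such statements describe single genes. Doc2a fell by 0.36 ± 0.0845 on the log2(FPKM + 1) scale (SE) in Y397F-T10 (adjusted p = 0.0358), by 0.37 in VEH-T3 (adjusted p = 0.0168) and by 0.36 in Y397D-T3 (adjusted p = 0.0112). In VEH-T10 the difference was -0.34 and missed the threshold (adjusted p = 0.0509).

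Deep cortical markers moved with Doc2a. Over the 30 libraries, log2(FPKM + 1) of Doc2a and the log2 summed deep cortical markers had r = 0.73 and rho = 0.58 (permutation p = 1e-05, the smallest these permutations can give, and 0.00097, adjusted 0.000268 and 0.0065 over 429 relations). Without the 2 libraries farthest from the median sum, r was 0.73. Within conditions r was 0.23 in VEH-HC, 0.25 in Y397F-T10, 0.62 in Y397D-T3, 0.75 in VEH-T10 and, at the most, 0.89 in VEH-T3. The VEH-T3 value leans on replicate 1, the highest in both. It had 7.32 FPKM of Doc2a (5.64 in the next mouse) and a deep cortical sum of 32.4 (19.6 in the next). An r within VEH-T3 without that mouse is not given here. With the dentate and deep cortical sums as covariates, an alternative added after the data were seen, the difference was -0.27 in VEH-T3 (adjusted p = 0.0348), -0.21 in Y397D-T3 (adjusted p = 0.0617) and -0.21 in Y397F-T10 (adjusted p = 0.113), so that the call was kept in VEH-T3 alone. The deep cortical sum of VEH-HC (20.6 to 25.1 FPKM) overlapped neither VEH-T10 (12.9 to 18.1) nor Y397F-T10 (14.9 to 19.5). In VEH-T3 and Y397D-T3 it was reached only by replicate 1 (32.4) and replicate 3 (26.4). Here and below, a call kept or lost in this fit therefore cannot separate the markers from the condition.

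Doc2b went the other way. It was tightly held in VEH-HC, between 25.4 and 27.6 FPKM with a median of 26.6. The lowest, median and highest values were 30.9, 37.8 and 40.7 in Y397D-T3 and 28.7, 33.5 and 38.2 in VEH-T10, so that neither group overlapped the home cage. In Y397F-T10 they were 25.4, 36.5 and 43.7.

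VEH-T3 was split, with 2 mice below every VEH-HC mouse and 4 above, from 22.8 to 44.0 FPKM. Doc2b rose by 0.47 ± 0.132 (SE, log2 scale) in Y397D-T3 (adjusted p = 0.0297). The other differences were 0.37 in Y397F-T10 (adjusted p = 0.148), 0.32 in VEH-T3 (adjusted p = 0.153) and 0.29 in VEH-T10 (adjusted p = 0.291).

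The level of Doc2b followed dentate granule cell markers from mouse to mouse. Over the 30 libraries r was 0.78 and rho 0.80 (permutation p = 1e-05 for each, the smallest these permutations can give, adjusted 0.000268 and 0.000477), and r was 0.80 without the 2 farthest libraries. Within conditions r was 0.97 in VEH-T3, 0.95 in Y397D-T3, 0.81 in Y397F-T10 and 0.89 in VEH-T10, but -0.00087 in VEH-HC, where the sum spanned only 93.8 to 121 FPKM. The 2 VEH-T3 mice with low Doc2b had dentate sums of 62.2 and 67.2 FPKM against 125 to 145 in the other 4. With both marker sums as covariates, the Y397D-T3 difference was 0.29 and still passed (adjusted p = 0.0197).

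**Figure D2:**
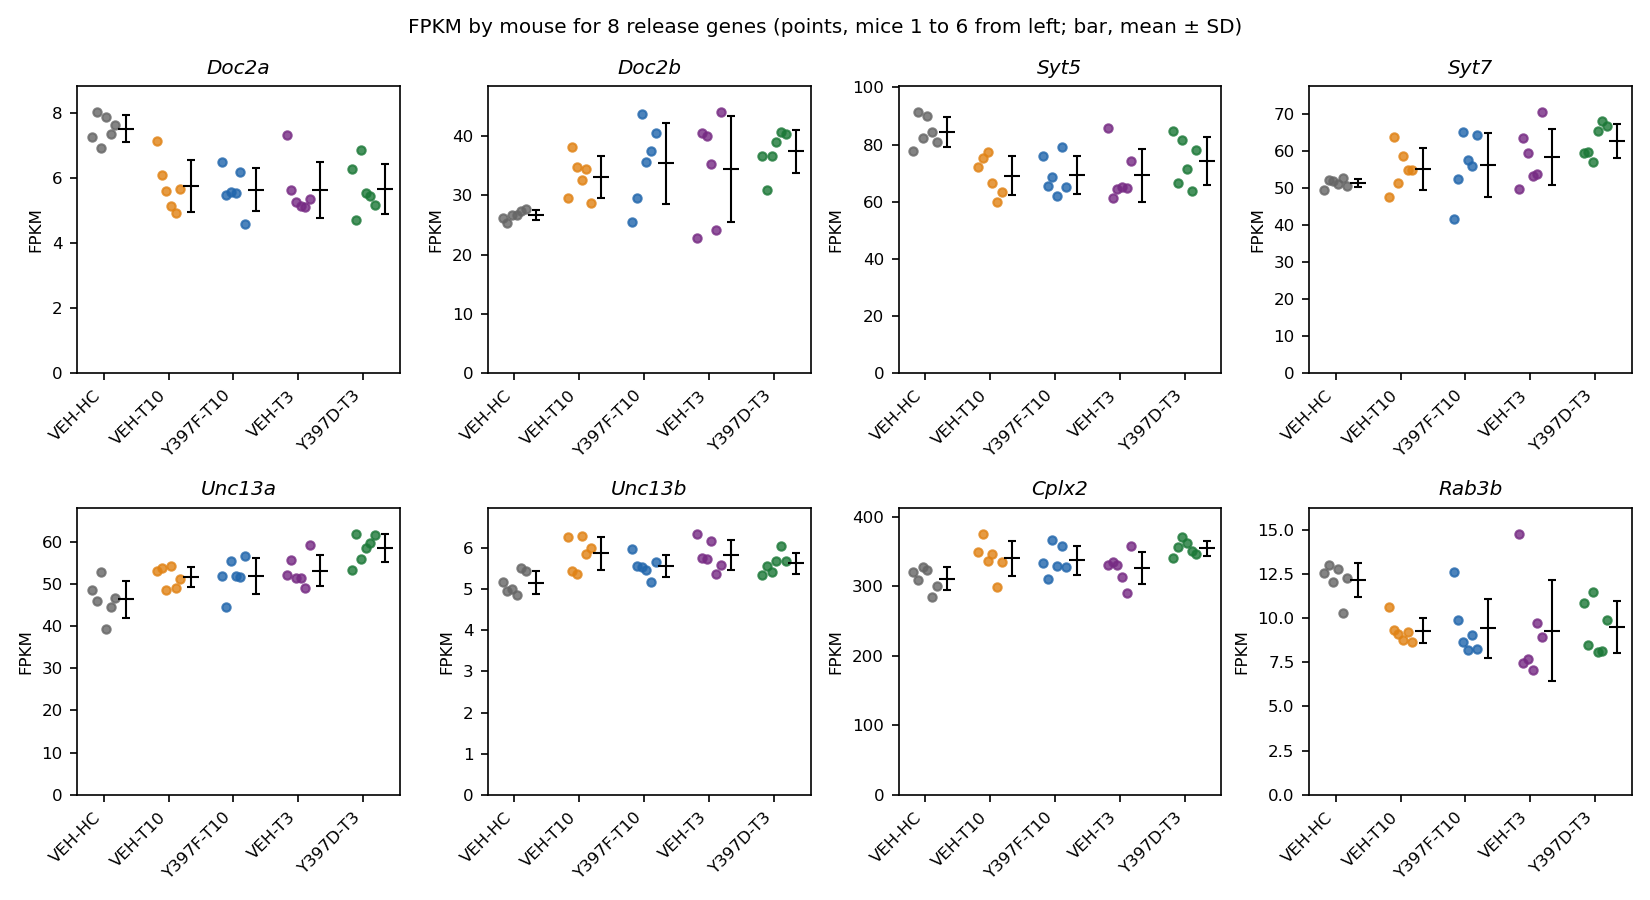
FPKM of 8 release genes in each mouse (points, linear axis from 0), with the mean ± SD of the 6 mice of each condition beside them. Doc2a lies lower and Doc2b higher in Y397D-T3 than in every VEH-HC mouse, and Unc13a, Cplx2 and Syt7 do not overlap between those conditions either. These are the 5 genes called in that comparison from the same values, and rows without overlap were not counted over all rows.

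Syt7, a high-affinity synaptotagmin of asynchronous release and facilitation, ranged from 49.7 to 52.9 FPKM in VEH-HC and from 57.2 to 68.2 in Y397D-T3, without overlap. It rose by 0.28 ± 0.0865 there (adjusted p = 0.0452), but the call was lost with the marker sums as covariates (0.17, adjusted p = 0.0904) and Syt7 also followed the dentate sum (r = 0.68, rho = 0.67, permutation p = 6e-05 and 0.0001, adjusted 0.00078 and 0.00179). Without the 2 farthest libraries this r was 0.62, and within conditions it ran from 0.13 in VEH-HC to 0.91 in Y397F-T10.

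Syt5, a calcium-binding synaptotagmin, ranged from 77.7 to 91.4 FPKM in VEH-HC, with a median of 83.3. Its lowest, median and highest values were 61.4, 64.9 and 85.8 in VEH-T3, 59.8, 69.5 and 77.3 in VEH-T10, 63.9, 74.9 and 84.6 in Y397D-T3 and 62.2, 67.1 and 79.0 in Y397F-T10. All 6 VEH-T10 mice and 5 of 6 VEH-T3 mice lay below every VEH-HC mouse. It fell by 0.29 ± 0.0816 in VEH-T3 (adjusted p = 0.0382), and the differences were -0.28 in Y397F-T10 (adjusted p = 0.0813), -0.29 in VEH-T10 (adjusted p = 0.0821) and -0.19 in Y397D-T3 (adjusted p = 0.154). Syt1, Syt4, Syt11 and Rph3a, a Rab3 effector, lay between -0.13 and 0.12 in all 4 comparisons, with 0 calls. Syt2 had -0.37 to -0.15, with 0 calls.

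Next, the priming and active zone proteins were examined. Unc13a encodes Munc13-1, the main priming factor of excitatory hippocampal terminals. Its level was 39.3 to 52.9 FPKM in VEH-HC, with a median of 46.4, and 53.3 to 62.0 in Y397D-T3, with a median of 59.2. The lowest, median and highest values were 49.0, 51.9 and 59.3 in VEH-T3, 48.7, 52.1 and 54.2 in VEH-T10 and 44.4, 51.9 and 56.7 in Y397F-T10.

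Every Y397D-T3 mouse lay above every home cage mouse, whereas the other trained groups overlapped it. Unc13a rose by 0.33 ± 0.0598 in Y397D-T3 (adjusted p = 0.0018). The differences were 0.20 in VEH-T3 (adjusted p = 0.0511), 0.16 in Y397F-T10 (adjusted p = 0.161) and 0.16 in VEH-T10 (adjusted p = 0.191). With both marker sums as covariates, the Y397D-T3 difference was 0.32 (adjusted p = 0.00886). Against VEH-T3, which had the same training, it was 0.14, with a 95% interval of 0.014 to 0.26, and did not pass (adjusted p = 0.611).

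Unc13b, which encodes the paralogue Munc13-2, was less abundant per length, at 5.16 ± 0.272 FPKM in VEH-HC and 5.83 ± 0.364 in VEH-T3. It rose by 0.15 ± 0.0443 in VEH-T3 (adjusted p = 0.0477), where 5 of 6 mice lay above every VEH-HC mouse. The call was kept in 6 of 23 alternatives. It was lost, among others, without the filter (adjusted p = 0.0723) and with centred libraries (adjusted p = 0.0838). Removing the trend with median transcript length and GC content gave 0.17 (adjusted p = 0.0628). The direction turned in 1 alternative, added after the data were seen: with the trend of the longest coding transcript removed, the difference was -0.033.

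Rims2, a RIM paralogue, had differences from -0.24 to -0.14. Bsn and Pclo, which encode the giant scaffolds bassoon and piccolo, and both Rims1 rows had differences from 0.05 to 0.35 in the 4 comparisons, with 0 calls without covariates. With both marker sums as covariates, Bsn, Pclo and Rims1 rows 1 and 2 passed in Y397D-T3 (adjusted p = 0.0143, 0.0175, 0.0102 and 0.0132). Pclo and Rims1 row 1 passed in VEH-T3 (adjusted p = 0.0326 and 0.0337). In that fit 11.7% of all rows passed in Y397D-T3 and 5.21% in VEH-T3. Rims3, a short RIM isoform, had differences from -0.68 to -0.51 and Unc13c from -0.61 to -0.34, also with 0 calls without covariates. Their spread was wide. Unc13c ranged from 2.02 to 2.86 FPKM in VEH-HC and from 1.14 to 1.87 in VEH-T10, without overlap, but from 0.865 to 5.80 in VEH-T3.

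Over the 30 libraries both followed the deep cortical markers. The permutations took no account of condition, and the sum and both genes tended to be high in VEH-HC. The p values therefore also hold that contrast, and no r within conditions is given here for these genes. For Unc13c, r was 0.87 and rho 0.68 (permutation p = 1e-05, the smallest these permutations can give, and 6e-05, adjusted 0.000268 and 0.00135), and r was 0.79 without the 2 farthest libraries. For Rims3, r was 0.80 and rho 0.66 (permutation p = 1e-05, the smallest possible, and 0.00011, adjusted 0.000268 and 0.00189), and r was 0.72 without them. The VEH-T3 mouse with 5.80 FPKM of Unc13c also had the highest deep cortical sum of all libraries, 32.4 FPKM.

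Across the 39 rows, the difference from VEH-HC was larger for genes with long transcripts, as it was, less steeply, over all rows in most comparisons. Spearman's rho between the length of the longest coding transcript and the log2 difference was 0.54 in VEH-T3, 0.49 in Y397F-T10, 0.42 in Y397D-T3 and 0.35 in VEH-T10, against 0.32, 0.34, 0.18 and 0.084 over the 12686 rows with a known length. With the median length over all annotated transcripts of a symbol, the values were 0.47, 0.44, 0.41 and 0.48 against 0.13, 0.17, 0.072 and -0.0024. These are descriptions across genes, which are not independent replicates, and the comparisons share the VEH-HC mice.

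**Figure D3:**
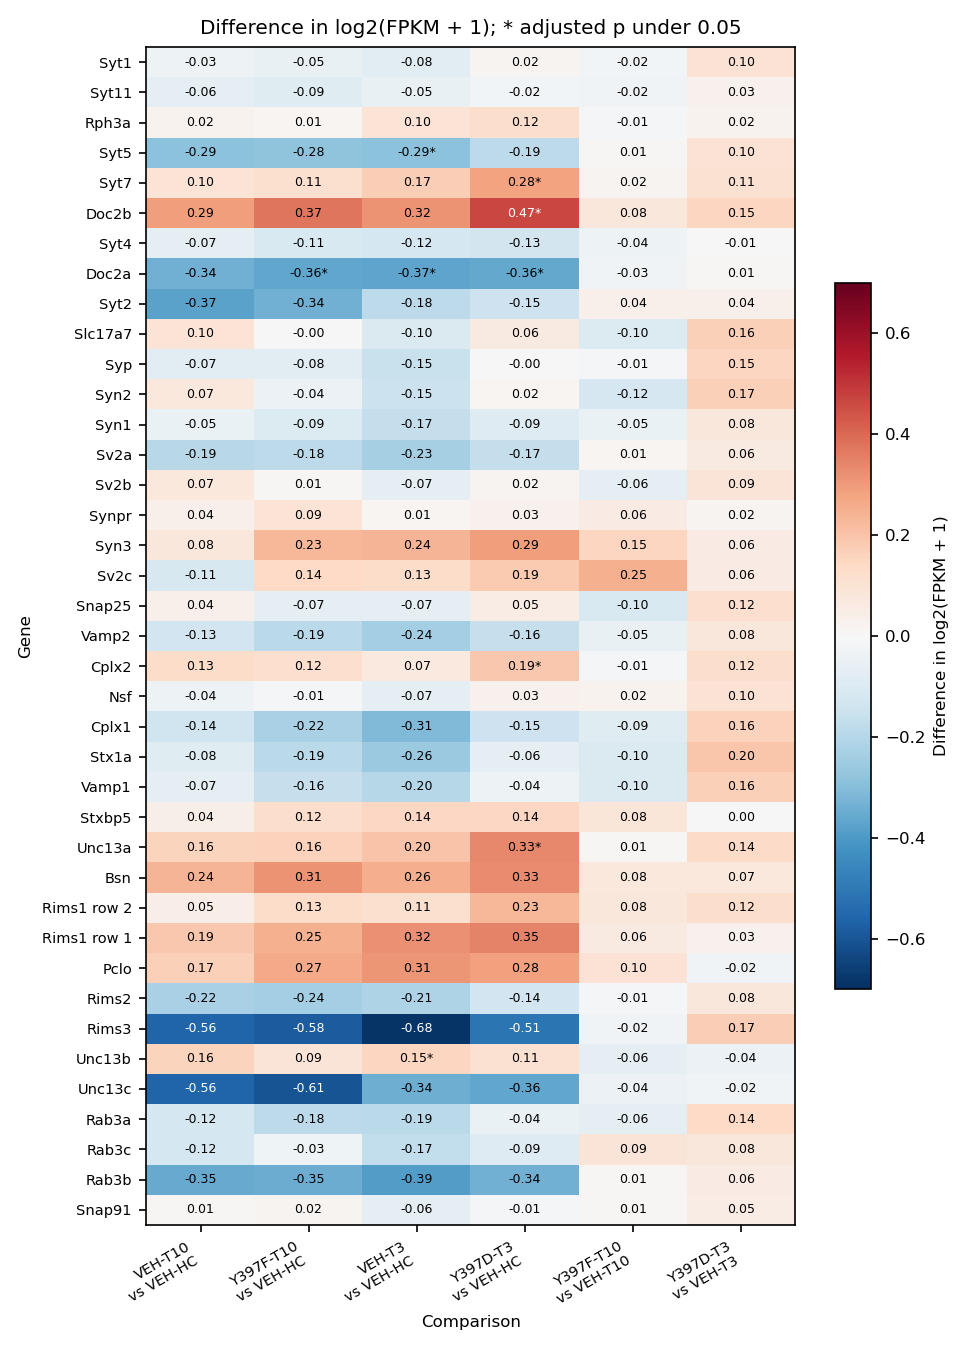
Difference in log2(FPKM + 1) of each release gene in 6 comparisons, colour and number, with an asterisk for an adjusted p under 0.05. The 5 asterisks against VEH-HC in Y397D-T3 stand beside none in the last 2 columns, which compare each mutant with vehicle mice of the same training.

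Among SNARE proteins and their regulators, 1 of 8 genes passed in 1 comparison. Cplx2, which encodes complexin 2, a clamp and activator of the SNARE complex, ranged from 285 to 328 FPKM in VEH-HC and from 341 to 371 in Y397D-T3, without overlap. It rose by 0.19 ± 0.0521 (adjusted p = 0.0261) and in the same comparison Cplx1, its close relative, differed by -0.15 (adjusted p = 0.466). The differences of Cplx2 were 0.07 in VEH-T3, 0.13 in VEH-T10 and 0.12 in Y397F-T10 (adjusted p = 0.488, 0.239 and 0.25).

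In VEH-T3, Cplx1, the syntaxin gene Stx1a and the vesicle SNAREs Vamp1 and Vamp2 had differences of -0.31, -0.26, -0.20 and -0.24 and none passed. For Cplx1, Stx1a and Vamp1 replicate 1 stood far above the other 5 mice: Cplx1 had 285 FPKM in that mouse against 197 in the next. Snap25, Nsf, the ATPase that takes SNARE complexes apart, and Stxbp5, the tomosyn gene, lay between -0.07 and 0.14 in all 4 comparisons.

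None of the 9 genes of vesicle membrane and surface proteins passed in any comparison. Sv2a, the vesicle glycoprotein bound by levetiracetam, had differences from -0.23 in VEH-T3 to -0.17 in Y397D-T3. Syn3 had differences from 0.08 in VEH-T10 to 0.29 in Y397D-T3 and was the member most closely related to the dentate sum (r = 0.87, rho = 0.87, permutation p = 1e-05 for each, the smallest possible, adjusted 0.000268 and 0.000477). Without the 2 farthest libraries its r was 0.79, and within conditions it was -0.73 in VEH-HC and 0.89 to 0.98 in the trained conditions.

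Sv2b moved against the same sum (r = -0.78, rho = -0.71, permutation p = 1e-05, the smallest possible, and 5e-05, adjusted 0.000268 and 0.00134), with r = -0.69 without the 2 farthest libraries and -0.68 to -0.87 within conditions. Slc17a7 and Syp had differences from -0.15 to 0.10 against the home cage, Syn1 and Syn2 from -0.17 to 0.07, Sv2b and the synaptoporin gene Synpr from -0.07 to 0.09, and Sv2c from -0.11 to 0.19.

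**Figure D4:**
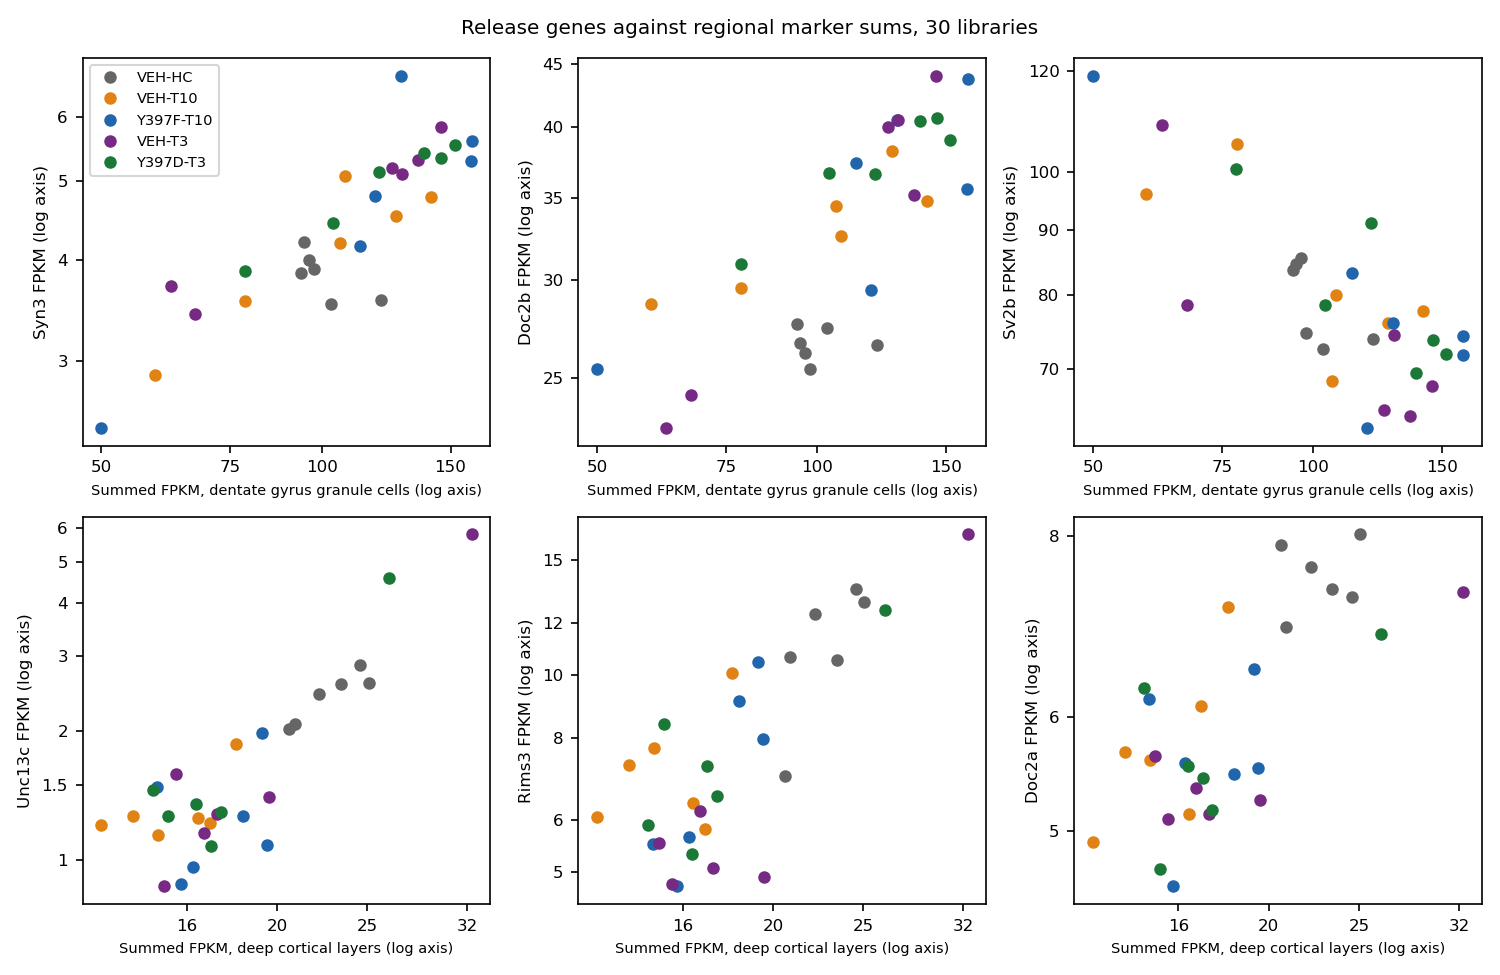
FPKM of 6 release genes against the summed FPKM of dentate granule cell markers (top) or deep cortical layer markers (bottom), both axes logarithmic, 1 point per library and coloured by condition. Syn3 and Doc2b increase and Sv2b decreases along the dentate sum. In the lower panels the 6 VEH-HC points lie to the right, with VEH-T3 replicate 1 (32.4 FPKM) and Y397D-T3 replicate 3 (26.4 FPKM) beyond them.

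The Rab3 GTPases recruit RIM and rabphilin to the vesicle. The lowest, median and highest values of Rab3b were 10.3, 12.4 and 13.0 FPKM in VEH-HC and 7.09, 8.33 and 14.8 in VEH-T3, where 5 of 6 mice lay below every VEH-HC mouse and replicate 1 above. Its differences were -0.39 in VEH-T3, -0.34 in Y397D-T3, -0.35 in Y397F-T10 and -0.35 in VEH-T10 (adjusted p = 0.0552, 0.0853, 0.142 and 0.145). Rab3a and Rab3c, with differences from -0.19 to -0.03, had 0 calls too. Rab3b followed the deep cortical sum (r = 0.70, rho = 0.55, permutation p = 2e-05 and 0.00176, adjusted 0.000409 and 0.01; r = 0.61 without the 2 farthest libraries), within conditions from 0.0063 in VEH-HC to 0.81 in VEH-T3. The VEH-T3 value leans on replicate 1, the highest of that group in Rab3b and in the deep cortical sum (32.4 FPKM). Snap91, the clathrin adaptor AP180 of vesicle retrieval, had values from -0.06 to 0.02.

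Mutant and vehicle mice of the same training were compared directly. Between Y397F-T10 and VEH-T10, 0 release genes passed at an adjusted or unadjusted p under 0.05, and 0% of all rows passed in limma (498 at an unadjusted p under 0.05, and 19 in the Cyber-T-style test, whose Tukey p covers the 10 pairs of conditions but is not adjusted over rows). Between Y397D-T3 and VEH-T3, 0 release genes passed, against 0.00758% of all rows, and 3 had an unadjusted p under 0.05: Slc17a7 (0.16), Cplx2 (0.12) and Unc13a (0.14). These are 7.69% of the release gene rows, where 7.87% of all rows had such a p.

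In that comparison 35 of 39 rows lay above 0, with a median of 0.078, where the median over all rows was 0.0024 and 50.9% lay above 0. Markers of other cells moved in the same comparison: those of oligodendrocytes were lower in 6 of 6 (median -0.19), of choroid plexus lower in 7 of 7 (-1.64), of interneurons higher in 8 of 8 (0.11) and of CA1 higher in 5 of 6 (0.19), and their part in the shift was not tested. The genes share libraries, so the count is a description and carries no test.

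VEH-T10 differed from VEH-T3 in 0 release genes, against 0.0455% of all rows, and 2 had an unadjusted p under 0.05 (5.13%, against 8.15% of all rows). The difference between the 2 plasmid effects, Y397F-T10 minus VEH-T10 against Y397D-T3 minus VEH-T3, also gave 0 release genes, against 0.0303% of all rows, and 1 had an unadjusted p under 0.05 (2.56%, against 9.08% of all rows). In this contrast 31 of 39 rows lay below 0, with a median of -0.074 against -0.0085 over all rows, of which 47.4% lay above 0. It holds the same Y397D-T3 and VEH-T3 mice as the shift above, and this count too carries no test.

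The median spread of the release genes was smallest in the home cage. Their median SD on the log2 scale was 0.0992 in VEH-HC, 0.143 in Y397D-T3, 0.155 in VEH-T10, 0.185 in Y397F-T10 and 0.196 in VEH-T3, where all rows had 0.111, 0.121, 0.124, 0.14 and 0.151. The smallest SD fell in VEH-HC for 23 of 39 rows, against 36.7% of all rows. Replicate 1 stood far from the other 5 mice for 15 rows in VEH-T3 and 12 in Y397F-T10.

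**Figure D5:**
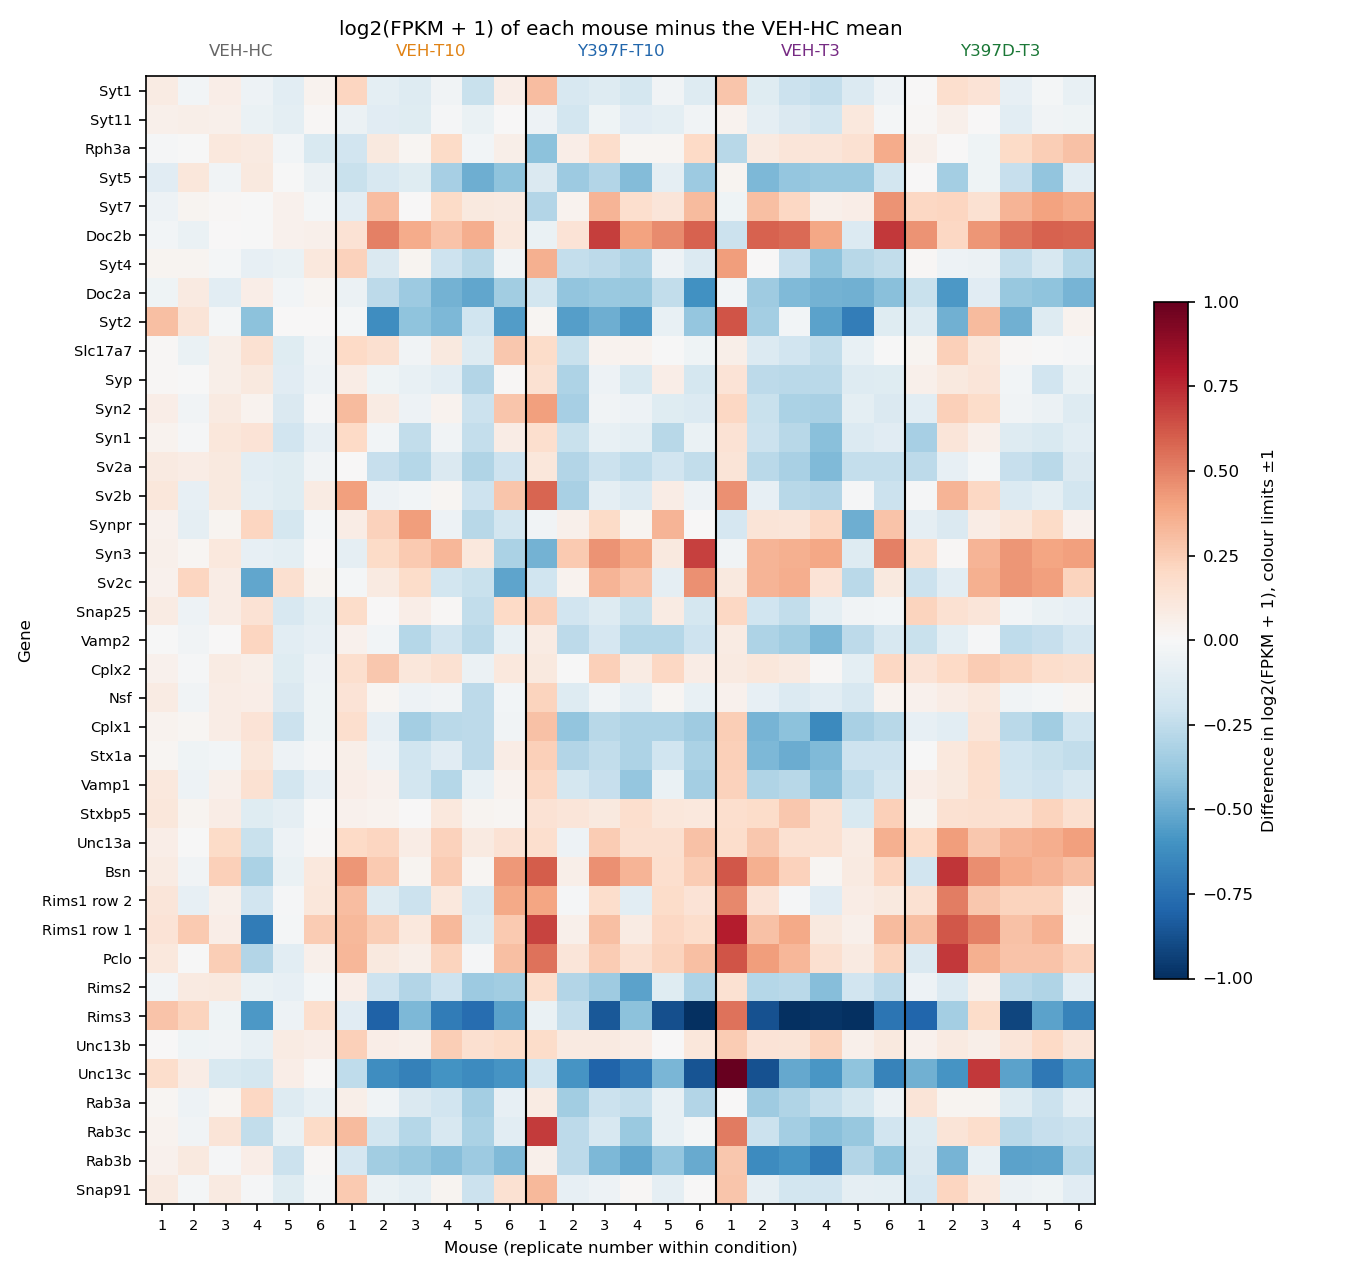
log2(FPKM + 1) of each release gene in each mouse minus its VEH-HC mean, columns ordered by condition and replicate number. Replicate 1 of VEH-T3 and of Y397F-T10 is red for Cplx1 and Rab3c, where replicates 2 to 6 are blue or near white.

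Leaving out these 3 libraries together, an alternative chosen after the values were seen, raised the number of release genes called from 3 to 18 in VEH-T3, from 1 to 12 in Y397F-T10, from 0 to 7 in VEH-T10 and from 5 to 8 in Y397D-T3. Without VEH-T3 replicate 1 alone, 13 passed in VEH-T3, and without Y397F-T10 replicate 1 alone, 5 passed in Y397F-T10. For fits without a single mouse the share of all rows passing is not given here, so these counts are not read as particular to release genes. Of the 18 genes, 15 were lower than in VEH-HC, among them Cplx1 (-0.42), Sv2a (-0.30), Vamp2 (-0.30) and Rims3 (-0.93). In the same step all rows called went from 681 to 1648 in VEH-T3 (12.5%), from 149 to 821 in Y397F-T10 (6.23%), from 108 to 712 in VEH-T10 (5.40%) and from 932 to 1484 in Y397D-T3 (11.3%).

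The wider release apparatus was described with 48 further genes, all of which entered the test. Over all rows, 7.07% passed in Y397D-T3, 5.17% in VEH-T3, 1.13% in Y397F-T10 and 0.819% in VEH-T10, the background for the counts of this list and of the endocytosis list. Of them, 1 fell in both conditions with 10 min of training, Slc17a6, a glutamate transporter more typical of thalamus, by 1.08 in VEH-T10 and 1.12 in Y397F-T10. In VEH-T3 1 rose, Stxbp5l, the second tomosyn gene, by 0.26. In Y397D-T3 3 rose, Stxbp5l (0.26), Rimbp2 (0.36), which couples RIM to calcium channels, and Erc2 (0.21), an active zone scaffold, and 3 fell, Sypl (-0.36), Slc17a6 (-0.95) and Syt9 (-0.78).

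Slc17a6 is itself 1 of the 7 thalamic markers, whose sum was 45.9 to 76.2 FPKM in VEH-HC and 33.0 to 43.7 in Y397D-T3. The sum weighs abundant markers most: Calb2 had means of 32.3 FPKM in VEH-HC and 11.1 in Y397D-T3. Prkcd had 16.5 and 15.4, Ramp3 3.91 and 3.87, and Rora 2.89 and 2.74. On the log2 scale all 7 were lower in Y397D-T3. Their part in the Slc17a6 result was not tested. Of 26 vesicle endocytosis genes, 2 rose and 2 fell in VEH-T3, 1 rose in Y397F-T10, 3 rose in Y397D-T3 and 0 passed in VEH-T10. Itsn1, an endocytic scaffold, rose in VEH-T3 (0.18), Y397F-T10 (0.20) and Y397D-T3 (0.17), and the adaptor subunit genes Ap2a1 and Ap2m1 fell in VEH-T3 by 0.19 and 0.22.

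Because CREST acts on chromatin with CBP, a partner of CREB, promoters of the release genes were searched for motifs of activity-regulated factors. RefSeq promoters of GRCm38.p6, from 250 bases before to 50 after the start, were at hand for 29 of 38 genes, 39 promoters in all, and 9 motifs were searched on both strands. TGACGTCA, the full CRE, stood in 1 of the 39 promoters, that of Syn1, and in 1.79% of all 32851. GCGTGGGCG, the EGR motif, stood in 1, that of Unc13a, and in 0.612% of all. A link between a motif and a difference in level was not tested.

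Both windows are shown with the motif in capitals, Syn1 at chrX:20921059-20921088 and Unc13a at chr8:71671763-71671792, each on the minus strand and 5′ to 3′ along the gene, the second holding the motif as its reverse complement:
Syn1: caaaggctgacTGACGTCActcactagccc
Unc13a: tctccggctcCGCCCACGCcgcagcgtcag

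Of the other 7 motifs, TGANTCA (AP-1) stood in 2 of the 39 promoters, CACGTG (E-box) in 3, TGACGT (the short CRE, which overlaps the full CRE) in 2, the NRF1 motif in 2 and TTCAGCACC (the left part of RE1) in 2. TGACGCAA, a CRE variant, and the right part of RE1 stood in 0. Over all promoters the shares were 7.81%, 7.15%, 7.51%, 0.971%, 0.371%, 0.49% and 0.0152%. A match is a description of letters and not a bound site.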

How the data were processed

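Total RNA from a hemisphere of dorsal hippocampus was sequenced as paired reads on NovaSeq and HiSeq instruments, and the sources do not say which library ran on which. Per the submitters' processing notes, the authors used TopHat2 2.1.1, Cufflinks 2.2.1 and mm10, and deposited FPKM values, which are used as deposited. FPKM holds no read totals, so depth is unknown and precision is the spread among 6 mice. Labels give the infusion as 3 days before training.

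Rows averaging at least 1 FPKM over 30 libraries (13184) entered limma 3.58.1 (R 4.3.3) after the log2(FPKM + 1) transform, with a term for each of the 5 conditions, a variance trend and Benjamini-Hochberg adjustment over all rows (0.05). Adding 1 draws low genes toward 0. The script was tested on simulated data.

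The members and lists were chosen with earlier results of these data known. Named genes are members called in any comparison, filled to 8 by the smallest unadjusted p (Rab3b), with up to 3 called genes of each other list in a comparison and the most and least abundant of each role. Others named here were chosen after their values were seen.

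Relations of 39 rows with 11 marker sums (429) used 100000 two-sided permutations. All libraries were permuted together, without regard to condition. The dentate and deep cortical lists were picked for gene by gene description after all 11 had been viewed, and other lists related to more rows than the deep cortical one. Alternatives were a pseudocount of 0.1, no filter (18287 rows), centring on the library median, only the libraries compared, a replicate block, each library left out, summed rows of a symbol, a Cyber-T-style test (Tukey p over the 10 pairs of conditions, not adjusted over rows) and removal of the trend with transcript length and GC content. That trend first used the median over all GENCODE vM21 transcripts of a symbol, which counts short fragments (1040 bases for Unc13a against 10255 for its longest coding transcript). A version with the longest coding transcript was added after the first result was seen, as were the covariate fit and the fit without 3 libraries.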

Additional observations from a re-analysis of the deposited data

Results flagged for a closer look

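Each release gene was examined in each condition for a mouse far from the other 5: a gap to the nearest mouse above Dixon's 95% critical value for 6, as a share of the whole range. Of 195 groups, 38 held such a mouse, where chance alone flags about 1 in 20, and in 33 of them it was the highest. The groups share libraries and are not independent. Values are FPKM, with the nearest other mouse of the condition in parentheses.

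VEH-T3 replicate 1 accounted for 15: Cplx1 285 (197), Doc2a 7.32 (5.64), Rab3b 14.8 (9.72), Rab3c 62.9 (37.9), Rims1 row 2 29.3 (22.9), Rims2 11.7 (8.99), Rims3 16.4 (6.19), Snap91 104 (80.5), Stx1a 56.4 (41.1), Sv2a 117 (90.3), Sv2b 109 (78.5), Syp 647 (542), Syt1 340 (270), Unc13c 5.8 (1.59), Vamp1 51.7 (38.7). Y397F-T10 replicate 1 accounted for 12, of which Rph3a was the lowest of its group and the others the highest: Cplx1 294 (197), Rab3c 71.3 (42.7), Rims1 row 1 29.8 (22.7), Rph3a 67.9 (91.7), Snap91 107 (86.1), Stx1a 56.4 (41.3), Sv2a 116 (93.3), Sv2b 119 (83.3), Syn2 273 (201), Syt1 348 (273), Syt4 44.5 (33.4), Vamp2 496 (415). VEH-T10 replicate 1 accounted for 4: Rab3b 10.7 (9.34), Rab3c 54.4 (40.2), Rims2 10.9 (8.88), Unc13c 1.87 (1.26). These are the 3 libraries with the lowest summed astrocyte, oligodendrocyte, microglia and endothelial markers of all 30. Over the 30 libraries the permutation test related 27 of 39 release gene rows to the astrocyte sum, 26 to the microglia sum, 23 to the oligodendrocyte sum and 17 to the endothelial sum (adjusted over 429 relations).

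VEH-HC replicate 4 accounted for 3, low for the first Rims1 row and Sv2c and high for Vamp2: Rims1 row 1 10.9 (18), Sv2c 1.41 (2.52), Vamp2 542 (469). The remaining 4 were the low Rab3b 10.3 (12) in VEH-HC replicate 5, the high Stxbp5 13.6 (12.9) in VEH-T10 replicate 4, the low Stxbp5 11.2 (14) in VEH-T3 replicate 5 and the high Unc13c 4.58 (1.45) in Y397D-T3 replicate 3. That last mouse also had the second highest deep cortical sum, 26.4 FPKM. No release gene passed the limma test of the difference between training lengths or between the plasmid effects (2 and 1 had an unadjusted p under 0.05).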

How the results depend on the processing

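Of the 38 release genes, those called against VEH-HC numbered 0 in VEH-T10, 3 in VEH-T3, 1 in Y397F-T10 and 5 in Y397D-T3. With only the libraries compared, the counts were 5 in VEH-T10, 0 in VEH-T3 and 2 in Y397F-T10. Without the filter and with centred libraries VEH-T3 gave 1 and 1, and centring gave 0 in Y397F-T10. Removing the length and GC trend gave 0 in VEH-T3 and in Y397F-T10 with either length measure. The Cyber-T-style test, with Tukey p over the 10 pairs of conditions and no adjustment over rows, gave 5, 6, 7 and 8 in VEH-T10, VEH-T3, Y397F-T10 and Y397D-T3. Of the fits added after the data were seen, marker covariates gave 0 in Y397F-T10 and 8 in Y397D-T3, and leaving out 3 libraries gave 7, 18, 12 and 8. Leaving out 1 mouse gave 0 to 1 in VEH-T10, 1 to 13 in VEH-T3 (13 without VEH-T3 replicate 1, 7 without replicate 5), 0 to 5 in Y397F-T10 and 2 to 8 in Y397D-T3. The cause of these changes in count was not tested, and the share of all rows called with 1 mouse left out is not given here. In the other 4 comparisons the count was 0 in every alternative run.

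Replicate numbers belong to different mice and did not pair them: over 60 pairs with the same number, deviations from the condition means correlated with a median r of 0.042, from -0.50 to 0.84, and 8 of 30 libraries correlated best with their own number. With the replicate block, release genes called numbered 1 in VEH-T10 and 5 in VEH-T3.

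Unc13a in Y397D-T3 was called in all 23 alternatives (adjusted p from 0.00146 to 0.00886 in limma, leaving aside the Cyber-T-style test, whose p is not adjusted over rows). Doc2a in Y397D-T3 was called in 21 of 23 and in VEH-T3 in 20, but Doc2a in Y397F-T10 in 11, Syt5 in VEH-T3 in 10, Unc13b in VEH-T3 in 6, Cplx2, Doc2b and Syt7 in Y397D-T3 in 18, 17 and 11. Unc13b changed sign with the longest coding transcript, to -0.033 in VEH-T3, -0.036 in Y397F-T10 and -0.031 in Y397D-T3. Over all rows, centring turned the split of higher and lower calls from 42 and 66 to 33 and 13 in VEH-T10, from 294 and 387 to 239 and 102 in VEH-T3, from 62 and 87 to 30 and 12 in Y397F-T10, and from 515 and 417 to 692 and 248 in Y397D-T3. Counts over all rows also moved by more than 1.5 times. With only the libraries compared they went from 108 to 321 in VEH-T10, 681 to 0 in VEH-T3, 149 to 43 in Y397F-T10 and 932 to 1845 in Y397D-T3. The length and GC trend gave 314 in VEH-T3 and 70 in Y397F-T10, or 220 and 79 with the longest coding transcript, which also gave 163 in VEH-T10. The Cyber-T-style test gave 355 in VEH-T10 and 349 in Y397F-T10, marker covariates 0 in VEH-T10, 24 in Y397F-T10 and 1538 in Y397D-T3, and leaving out 3 libraries 712 in VEH-T10, 1648 in VEH-T3, 821 in Y397F-T10 and 1484 in Y397D-T3.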
